A study of Mus musculus with 3 samples.

Results

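Genes of DNA replication and genes of mitosis were read on the microarrays of 3 cell fractions from mouse epididymal fat. The 59 genes were a named list, 23 of them acting in or before S phase and 36 acting in mitosis, and were taken from every non-control probe that carries their names, which gave 116 probes of 56602 and 59 genes of 37323. No measured value entered the choice, but the list and its division were set with earlier results of these arrays known. The fractions were stromal vascular cells (SVC), small proliferative adipocytes (SPA) and mature adipocytes (MA), each from male C57/BL mice at 20 weeks of age and each on 1 array.

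After collagenase digestion of the fat, a spin at 9 xg for 1 s separated SVC, in the lower phase, from floating cells, and a further spin at 226 xg for 3 min split these into sedimented SPA and floating MA. SVC and SPA were grown in DMEM to 90% confluency before RNA extraction, and no culture is described for MA, so that growth in culture and the kind of cell cannot be told apart wherever MA is compared. Total RNA, 50 ng per fraction, was labelled with Cy3, and the 3 arrays lay on the same slide and were scanned together. The labels carry another date and number for MA than for SVC and SPA, and do not say whether animals were pooled. With 1 array per fraction no difference could be tested, and every ratio below describes these arrays.

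Replication genes are transcribed in G1 and S phase, when E2F factors relieve the repression that pocket proteins hold over them. They license origins with the Mcm helicase, build the replication fork and supply deoxynucleotides. Most mitotic genes are transcribed later, in G2 and M phase, under B-Myb with the MuvB core and under FoxM1. The anaphase-promoting complex removes many of their proteins when cells divide. The mitotic set here also holds the regulators Mybl2 (B-Myb), Foxm1 and Ccna2, and medians without the regulators of both sets are given below. Both sets are known to be low in cells that have left the cycle, such as lipid-filled adipocytes.

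The promoters of both sets are shown first, because the sets part by the phase in which their promoters are known to be active. RefSeq promoter windows of the GRCm38.p6 assembly, from 250 bases before to 50 after a transcription start, were matched by symbol for 48 of the 59 genes. Of these, 18 were replication genes and 30 were mitotic genes. The windows were searched on both strands for the cell cycle genes homology region (CHR, TTTGAA or TTCGAA), the CCAAT box, and E2F-like motifs (TTGGCGC, its variant TTCCCGC, its variant TTCGCGC and its variant TTGCCGC). A CHR was found in 22 of 30 mitotic genes (73.3%) and in 5 of 18 replication genes (27.8%), against 21.7% of the 27025 genes in the promoter table. An E2F-like motif was found in 12 of 18 replication genes (66.7%) and in 5 of 30 mitotic genes (16.7%), against 10.9% of all genes. CCAAT was found in 80% of the mitotic and 61.1% of the replication genes, against 41.1% of all genes, and its letters can share bases with an E2F-like motif. The mitotic genes thus held CHR and CCAAT together more often than the table as a whole, 20 of 30 (66.7%) against 8.61%, and the replication genes held E2F-like motifs more often. A match of letters is a description and not a site shown to be bound.

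Of the mitotic genes, the 170 bases before the start of Cdc20, Ube2c, Cdk1 and Kif11 are printed, because Cdc20 and Ube2c were among the genes with the largest differences between SVC and SPA, and Cdk1 and Kif11 stand for entry into mitosis and for the spindle. The capitals mark CHR, CCAAT and E2F-like letters, read 5′ to 3′ on the strand of the gene.
Cdc20 (chr4:118437344-118437513, minus strand): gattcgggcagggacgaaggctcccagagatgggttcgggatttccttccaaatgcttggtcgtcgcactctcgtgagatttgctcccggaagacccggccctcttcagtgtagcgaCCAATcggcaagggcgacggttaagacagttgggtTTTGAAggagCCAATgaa
Ube2c (chr2:164769759-164769928, plus strand): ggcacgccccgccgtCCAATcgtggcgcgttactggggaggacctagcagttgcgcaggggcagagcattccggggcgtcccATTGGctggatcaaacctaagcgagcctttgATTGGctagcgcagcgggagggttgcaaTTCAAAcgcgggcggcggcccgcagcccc
Cdk1 (chr10:69352913-69353082, minus strand): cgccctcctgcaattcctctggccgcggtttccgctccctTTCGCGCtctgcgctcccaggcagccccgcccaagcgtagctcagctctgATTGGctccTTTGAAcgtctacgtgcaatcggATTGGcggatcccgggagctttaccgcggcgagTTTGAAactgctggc
Kif11 (chr19:37376212-37376381, plus strand): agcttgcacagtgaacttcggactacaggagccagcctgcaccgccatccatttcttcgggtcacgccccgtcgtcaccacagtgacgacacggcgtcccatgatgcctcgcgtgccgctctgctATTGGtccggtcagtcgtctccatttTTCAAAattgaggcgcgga
The CHR began 18 bases before the start in Cdc20, 29 in Ube2c, 15 and 71 in Cdk1 and 19 in Kif11. The nearest CCAAT box upstream of a CHR lay at 53 bases in Cdc20, 57 in Ube2c, 48 and 80 in Cdk1 and 45 in Kif11. Cdk1 also held E2F-like motifs at 130 bases and, upstream of the printed stretch, at 178 bases.

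Of the replication genes, Mcm6 and Mcm5 are printed for the Mcm helicase and Rrm1 as the replication gene with the largest difference between SVC and SPA. The capitals have the same meaning.
Mcm6 (chr1:128359706-128359875, minus strand): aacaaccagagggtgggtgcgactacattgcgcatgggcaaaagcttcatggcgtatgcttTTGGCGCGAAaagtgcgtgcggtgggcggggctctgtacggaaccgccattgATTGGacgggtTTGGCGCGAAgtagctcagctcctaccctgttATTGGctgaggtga
Mcm5 (chr8:75109339-75109508, plus strand): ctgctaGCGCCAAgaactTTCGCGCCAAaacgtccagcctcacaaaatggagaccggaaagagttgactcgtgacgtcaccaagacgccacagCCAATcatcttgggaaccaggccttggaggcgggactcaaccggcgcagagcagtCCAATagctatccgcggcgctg
Rrm1 (chr7:102441525-102441694, plus strand): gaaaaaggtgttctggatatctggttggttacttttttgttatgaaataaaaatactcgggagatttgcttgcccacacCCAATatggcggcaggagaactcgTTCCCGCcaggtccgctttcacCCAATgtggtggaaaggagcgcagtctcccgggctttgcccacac
No CHR was found in these 3 windows. In Mcm6, pairs of E2F-like motifs on opposite strands shared bases and began at 109 and 46 bases before the start. In Mcm5 a single motif began at 164 bases and such a pair at 152 bases, and Rrm1 held one motif at 67 bases. CCAAT boxes began at 57 and 14 bases in Mcm6, at 77 and 22 bases in Mcm5 and at 91 and 45 bases in Rrm1.

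Levels are given as log2 of the processed signal over that of the spot at the 75th percentile on the same array, so that 0 is that percentile, and a gene was read at its brightest probe over the 3 arrays. Levels are compared only between arrays for the same gene, since probes differ in brightness. All 59 genes were well above background in SVC and SPA, and 57 were in MA, where Ccne2 and Ttk were not. All 59 had their lowest level in MA. The order SVC, SPA, MA from high to low was found in 54 genes, which were all 36 mitotic genes and 18 of 23 replication genes. The other 5, Cdt1, Mcm6, Pcna, E2f1 and E2f2, were highest in SPA. Among these, a dimmer probe of Mcm6 had a log2 ratio of SPA over SVC of -0.33, and one of E2f2 had -0.0018. The place of Mcm6 and E2f2 thus depended on the probe, and Cdt1, Pcna and E2f1 were read at 1 probe each.

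**Figure D1:**
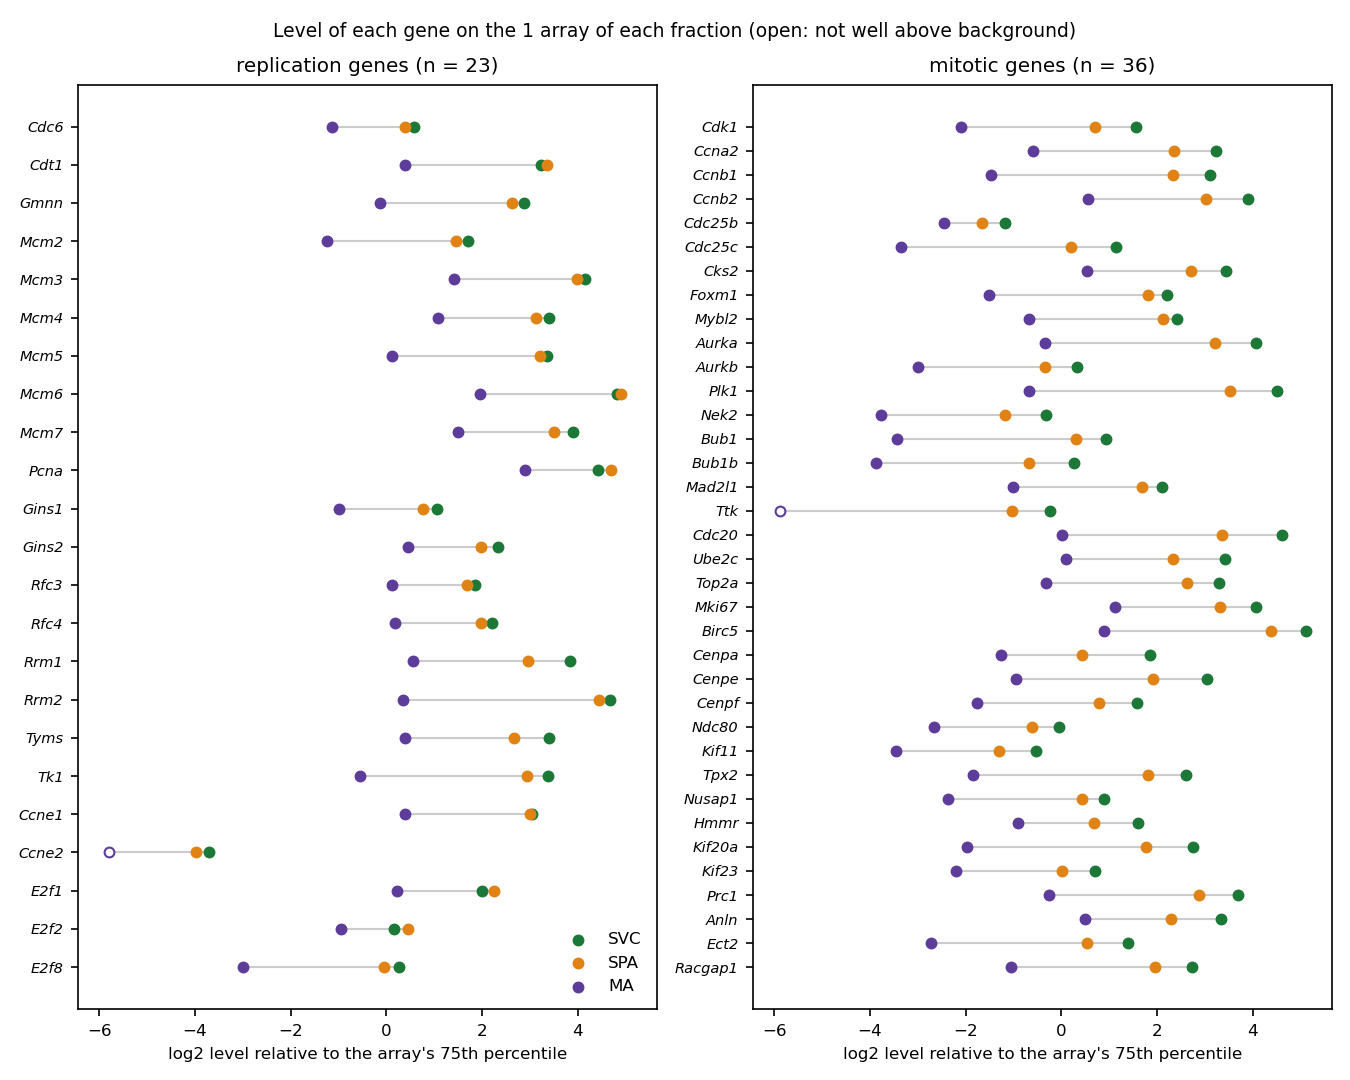
Log2 level of each of the 59 genes over the array's 75th percentile (horizontal axis) on the 1 array of SVC (green), SPA (orange) and MA (purple), with replication genes on the left and mitotic genes on the right. MA is the lowest point of every gene, and the orange point lies left of the green one for all 36 mitotic genes but right of it for 5 of 23 replication genes. Open points (Ccne2 and Ttk in MA) were not well above background.

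Between the 2 cultured fractions, mitotic genes were lower in SPA than in SVC, and most replication genes were lower too, by a smaller median difference. In SPA over SVC, the mitotic genes had a median of -0.80 on the log2 scale, a level 1.74-fold lower, and the replication genes one of -0.23, or 1.18-fold lower. The median over all 22691 genes with a ratio was 0.07, and their lower quartile was -0.17, so that both set medians lay below it. All 36 mitotic and 18 of 23 replication genes were below 0, against 42.1% of all genes. A rule of at least 1.5-fold lower was added after seeing the data. It was met by 30 of 36 mitotic and 2 of 23 replication genes, against 8.1% of all genes, and the replication count is near that share. At least 2-fold lower were 5 of 36 mitotic and 0 of 23 replication genes, against 3.24%, which the replication count is near too. At 5-fold, the rule of the study, 0 of the 59 genes were lower, near the 0.351% of all genes.

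The medians of the sets differed by 0.57 on the log2 scale. Every mitotic gene lay below the median of the replication genes, and 1 replication gene, Rrm1, lay below the median of the mitotic genes. The ranges overlapped: the mitotic ratios ran from -1.41 to -0.30 and the replication ratios from -0.87 to 0.29. No spread between cultures is known, as each fraction has 1 array. Repeated spots of 1 probe within an array had a median SD of 0.04 to 0.05 on the log2 scale, which covers the array surface only and not the culture, the RNA or the labelling. Fewer dividing cells and less RNA per dividing cell cannot be told apart in such bulk RNA.

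**Figure D2:**
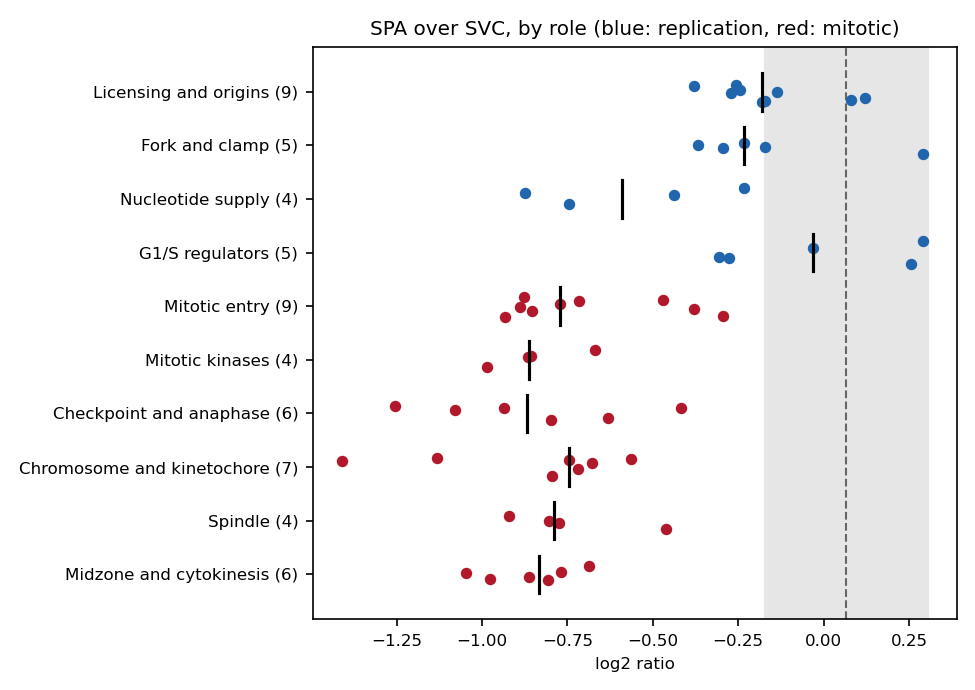
Log2 ratio of SPA over SVC for each gene (points) by role, with the number of genes in brackets, blue for replication and red for mitotic roles. Black bars are medians of a role, the dashed line is the median of all genes with a ratio (0.07) and the grey band holds their middle quartiles. All red points are below 0, and the blue medians of licensing, fork and regulator genes lie between -0.23 and -0.03.

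The genes that license origins had a smaller median difference between SVC and SPA than the mitotic genes. Their median ratio was -0.18, and 7 of 9 were below 0, against 42.1% of all genes. None of the 9 reached 1.5-fold, and 8.1% of all genes were at least 1.5-fold lower, so that 0 of 9 is near that share. Mcm6, a subunit of the helicase that unwinds DNA, had a level of 4.83 in SVC, 4.91 in SPA and 1.97 in MA. Mcm5, of the same helicase, had 3.35 in SVC, 3.22 in SPA and 0.13 in MA. Mcm3 had 4.16, 3.99 and 1.41 in the same order. Of the other subunits, Mcm2, Mcm4 and Mcm7 had larger differences between SVC and SPA, with ratios of -0.24, -0.27 and -0.38, and MA lay below both cultured fractions for all 6. Cdt1, which loads the helicase, had 3.24 in SVC, 3.36 in SPA and 0.38 in MA. Its inhibitor geminin (Gmnn) had 2.89, 2.63 and -0.13, and Cdc6, which loads the helicase with Cdt1, had 0.57, 0.39 and -1.14. The local background of the Cdt1 spot was marked as outlying in SVC and SPA, and the part of this in its ratio was not tested.

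At the fork, Pcna, the sliding clamp of the polymerases, was one of the genes above 0, with a level of 4.42 in SVC, 4.71 in SPA and 2.90 in MA. Gins1 and Gins2, which join the active helicase, and Rfc3 and Rfc4, which load the clamp, had ratios of SPA over SVC between -0.37 and -0.17. The median of the 5 fork genes was -0.23. None of the 5 reached 1.5-fold, which is near the 8.1% of all genes that were at least 1.5-fold lower.

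The genes of nucleotide supply stood lowest among the replication roles, with a median of -0.59. Rrm1, the large subunit of ribonucleotide reductase, had a level of 3.84 in SVC, 2.97 in SPA and 0.56 in MA, or 1.83-fold lower in SPA than in SVC. Rrm2, the small subunit of the same enzyme, had 4.69, 4.45 and 0.34, so that it was 1.17-fold lower in SPA. The subunits thus differed in their ratio of SPA over SVC, -0.87 and -0.23, although their proteins act together. Each subunit was read at 1 probe, so that a difference between probes cannot be told apart from this. Tyms, which makes thymidylate, had 3.41 in SVC, 2.66 in SPA and 0.39 in MA, a ratio of -0.74, and Tk1, the thymidine kinase of dividing cells, had a ratio of -0.44.

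Of the G1/S regulators, E2f1 and E2f2, activators of S phase genes, were higher in SPA by 0.26 and 0.29 at the brightest probe. E2f1 has 1 probe, and the dimmer probe of E2f2 had a ratio of -0.0018, so that the difference in E2f2 depended on the probe. E2f2 had a level of 0.17 in SVC, 0.46 in SPA and -0.94 in MA. Cyclin E1 (Ccne1), which drives entry into S phase, was level at 3.04 in SVC and 3.01 in SPA, with 0.38 in MA. Cyclin E2 (Ccne2) was dim, with -3.70 in SVC and -3.97 in SPA, and was not well above background in MA. E2f8, a repressor of the E2F family, had a ratio of -0.31 at its brightest probe, while its dimmer probes had -0.02 and 0.26. The median of the 5 regulators was -0.03.

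All 9 genes of mitotic entry were lower in SPA, against 42.1% of all genes, and their median ratio was -0.77. Cdk1, the kinase that drives entry, had a level of 1.56 in SVC, 0.71 in SPA and -2.10 in MA. Its partner cyclin B1 (Ccnb1) had 3.11, 2.33 and -1.47. Cyclin A2 (Ccna2), which acts in S phase and G2, had 3.24, 2.36 and -0.59, and thus stood 1.84-fold lower in SPA. Cyclin B2 (Ccnb2) and Cdc25c, a phosphatase that activates Cdk1, had ratios of -0.89 and -0.93, and Cks2, which binds Cdk1, had -0.72. Read at the brightest probe, the smallest differences in this role were those of the transcription factors Mybl2 (B-Myb), at -0.30, and Foxm1, at -0.38. Foxm1 had a level of 2.20 in SVC, 1.82 in SPA and -1.52 in MA, and Mybl2 had 2.43, 2.13 and -0.67. A dimmer probe of Foxm1 had -0.82, near the mitotic median, so that the place of Foxm1 between the sets depended on the probe.

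The 4 mitotic kinases were all at least 1.5-fold lower in SPA, against 8.1% of all genes, with a median of -0.86. Plk1, a kinase of entry, spindle and exit, had a level of 4.52 in SVC, 3.53 in SPA and -0.67 in MA. Aurka, the kinase of the spindle poles, had 4.07, 3.21 and -0.34, with a locally outlying background in SVC whose part in the ratio was not tested. Aurkb, the kinase of the chromosomal passenger complex, had 0.32, -0.35 and -2.99, the smallest difference of the 4 between SVC and SPA. Nek2, a centrosome kinase, had a ratio of -0.87.

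Checkpoint and anaphase genes had the lowest role median between SVC and SPA, -0.87. Cdc20, which activates the anaphase-promoting complex, had a level of 4.61 in SVC, 3.35 in SPA and 0.01 in MA, or 2.39-fold lower in SPA than in SVC. Ube2c, which hands ubiquitin to that complex, had 3.42, 2.34 and 0.09, or 2.11-fold lower. Bub1b, a checkpoint protein that holds Cdc20 back, had 0.25, -0.68 and -3.87. These 3 genes around the anaphase-promoting complex were thus between 1.91-fold and 2.39-fold lower in SPA. Mad2l1, which also binds Cdc20, had the smallest difference, -0.42, and Bub1 and Ttk, kinases of the checkpoint, had -0.63 and -0.80.

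Among chromosome and kinetochore genes the centromeric histone Cenpa had the largest difference of all 59 genes, 2.66-fold lower in SPA. Its level was 1.84 in SVC, 0.44 in SPA and -1.27 in MA, read at 1 probe (mm9, chr5:30974916-30975386). Cenpe, a kinetochore motor, had 3.04, 1.91 and -0.95, or 2.19-fold lower in SPA. Cenpf and Ndc80, also of the kinetochore, had ratios of -0.80 and -0.56. Mki67 (Ki-67), the common marker of cycling cells, had 4.06 in SVC, 3.31 in SPA and 1.13 in MA. Top2a, which untangles chromosomes, had 3.30, 2.63 and -0.33. Birc5 (survivin), of the chromosomal passenger complex, had 5.11, 4.39 and 0.89. These 3 genes lay between -0.75 and -0.68, close to the mitotic median.

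Of the spindle genes, the motor Kif11 had a ratio of SPA over SVC of -0.77, with a level of -0.53 in SVC, -1.30 in SPA and -3.45 in MA. Tpx2, which activates Aurka, had -0.80, Hmmr -0.92 and Nusap1, a microtubule binder, -0.46. All 6 genes of the midzone and of cytokinesis were at least 1.5-fold lower, against 8.1% of all genes, with a median of -0.83. Anln (anillin), a scaffold of the cleavage furrow, had 3.35 in SVC, 2.30 in SPA and 0.50 in MA, or 2.07-fold lower in SPA. Kif20a, a motor of the midzone, had 2.75, 1.77 and -1.97. The local background was outlying for Kif20a and Tpx2 in SPA and for Birc5 in SVC and MA, and its part in their ratios was not tested. Prc1, which bundles midzone microtubules, and Ect2 and Racgap1, which act on RhoA at the furrow, had ratios between -0.86 and -0.77, and Kif23, the partner of Racgap1, had -0.69. The late genes of division thus lay no nearer to SVC than those of entry.

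The promoter motifs and the ratios could be set side by side for the 48 matched genes. The 18 mitotic genes with a CHR and no E2F-like motif had a median ratio of SPA over SVC of -0.80, and the 7 mitotic genes with neither had -0.72. The 8 replication genes with an E2F-like motif and no CHR had -0.18, and the 5 with neither had -0.03. These 8 ran from -0.87 to 0.12 and these 5 from -0.74 to 0.29. With so few genes and such ranges, a difference by motif within a set cannot be judged and was not tested. The medians of the mitotic classes given here lay below those of the replication classes. The 4 replication genes that hold both motifs, E2f2, E2f8, Mcm7 and Rfc3, had a median of -0.24. In E2f2 the motifs lay in separate windows, at different transcription starts, and no window held both. The 4 mitotic genes that hold both within a window, Cdk1, Ect2, Hmmr and Mki67, had -0.86.

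In MA both sets were far lower than in SPA. The median ratio of MA over SPA was -2.83 over the mitotic genes and -2.27 over the replication genes, or 7.13-fold and 4.84-fold lower, against a median of -0.07 over all 24098 genes with a ratio. All 59 genes were below 0, against 53% of all genes. At least 5-fold lower were 37 of the 59, 26 mitotic and 11 replication genes, against 3.97% of all genes. At least 2-fold lower were 58, against 18% of all genes, and the exception was Cdc25b, a phosphatase that activates Cdk1, at -0.81. The medians differed by 0.56, and by 0.26 with normexp background correction in place of the processed signal. Here the sets overlapped more than between SVC and SPA: 26 of 36 mitotic genes lay below the replication median, and 6 of 23 replication genes lay below the mitotic median.

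Of the genes measured on both arrays, Plk1 had the lowest ratio of MA over SPA, -4.20, or 18.4-fold lower in MA. Rrm2 followed at -4.11, or 17.3-fold, and Ttk was at least 17.3-fold lower, a bound set by the lowest signal well above background in MA. The probe of Plk1 lies at chr7:129313220-129313279 and that of Rrm2 at chr12:25398824-25398883 (mm9). The lowest ratios thus came from both sets. Ccnb1, at -3.80, Kif20a, at -3.74, and Bub1, at -3.73, followed among the mitotic genes, and Tk1, at -3.50, among the replication genes. Ccne2 was at least 2.26-fold lower, a bound that its dim level in SPA sets close to 0.

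The roles differed in MA. The 5 fork and clamp genes had the smallest differences, with a median of -1.75 and a range from -1.81 to -1.51. Of these 5, 0 were 5-fold lower, against 3.97% of all genes. The 9 licensing genes had a median of -2.71, and 6 of them were 5-fold lower. The 4 genes of nucleotide supply had a median of -2.95, within the range of the mitotic roles. Pcna, Gins1, Gins2, Rfc3 and Rfc4 were thus 2.84-fold to 3.50-fold lower in MA, and Tk1 and Rrm2 were 11.3-fold and 17.3-fold lower. Among the mitotic roles the medians ran from -2.47 for the spindle to -3.27 for checkpoint and anaphase genes. Cenpa, with the largest difference between SVC and SPA, had the third smallest of the mitotic genes between SPA and MA, -1.70.

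The comparison of MA with SVC uses the same MA array and the same SVC array as those above, so it adds no independent evidence. All 59 genes were below 0 (49.9% of all genes), and 48 were at least 5-fold lower (3.96% of all genes), of which 35 were mitotic and 13 were replication genes. All 59 were at least 2-fold lower, against 18% of all genes. The medians were -3.65 for mitotic and -2.65 for replication genes, a difference of 0.99 (0.59 with normexp background correction), and the median of all genes with a ratio was -0.0019. Plk1 was 36.5-fold lower in MA than in SVC, Ttk at least 30.0-fold, Kif20a 26.3-fold and Cdc20 24.1-fold. Of the mitotic genes, Cdc25b was the one under 5-fold, at 2.43-fold.

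**Figure D3:**
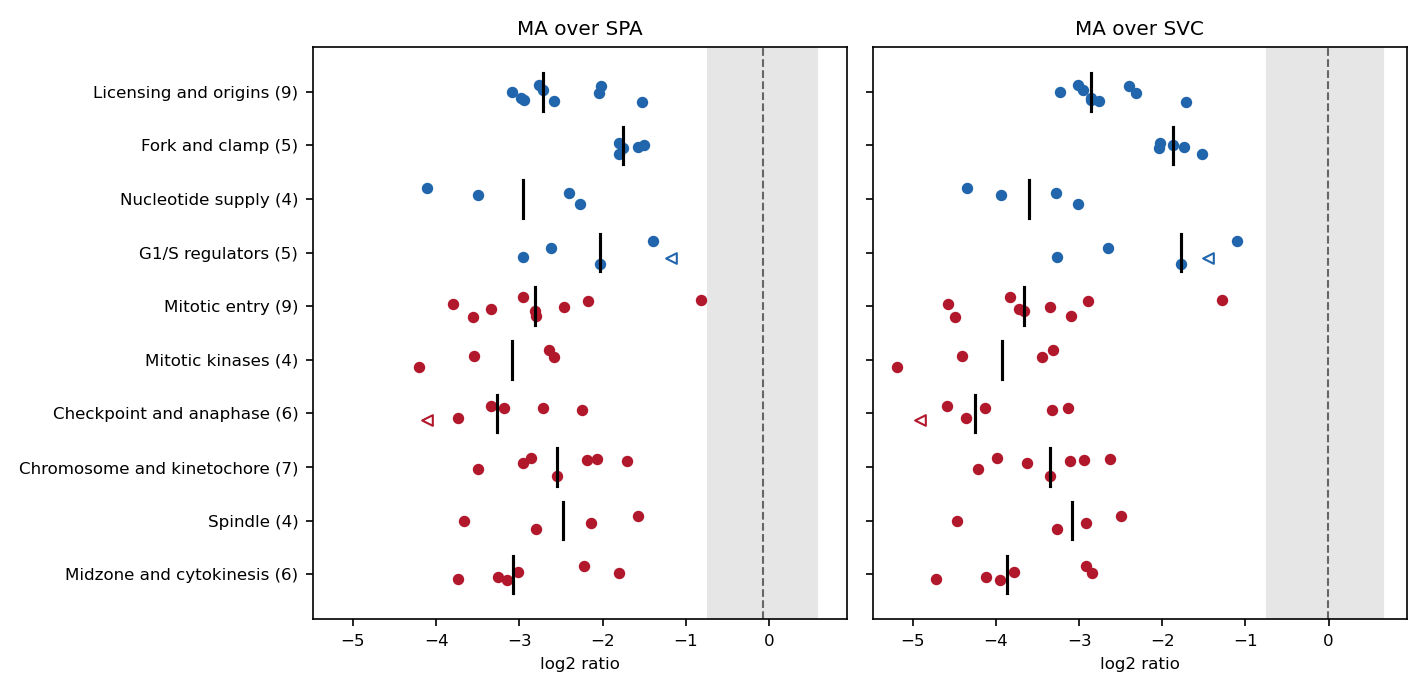
Log2 ratio of MA over SPA (left) and MA over SVC (right) for each gene by role, blue for replication and red for mitotic roles, with black bars at the medians of a role, open triangles for bounds (Ccne2 and Ttk), the dashed line at the median of all genes with a ratio and the grey band over their middle quartiles. Fork and clamp genes form the tightest group, between -1.81 and -1.51 in MA over SPA, and every point lies left of the dashed line.

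Other genes of the same processes, which are no members, were read in the same way. Of 45 other replication genes, 37 had a ratio of SPA over SVC below 0, against 42.1% of all genes, and the median was -0.20. At least 1.5-fold lower was 1, against 8.1% of all genes, namely Dbf4, the activator of the Cdc7 kinase, at -0.66. Of 70 other mitotic genes with a ratio, 69 were lower, with a median of -0.63. At least 1.5-fold lower were 39 of the 70, against the same 8.1%. Kif2c, a microtubule depolymerase, had a level of -0.14 in SVC and -1.32 in SPA. The exception was Zwint, a kinetochore protein, at 0.47. The division between the sets thus had the same sign in the longer lists, which were written with the earlier results known and share the arrays.

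In MA over SPA, the other replication genes had a median of -2.01 with 19 of 45 at least 5-fold lower. The other mitotic genes had -2.72 with 46 of 70, against 3.97% of all genes. Exo1, a nuclease of repair and replication, had the lowest ratio of these replication genes, at -4.64. Timeless, of the fork protection complex, at 0.95, and Ung, which removes uracil from DNA, at 0.56, were the 2 that were higher in MA. Of the other mitotic genes, Hmgb2, a chromatin protein, was the one that was higher in MA, at 0.48.

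Genes that act upstream of these genes or on their proteins were read too. The 13 genes of the anaphase-promoting complex were its subunits and the co-activator Fzr1, which has activity outside the cycle too. They had a median of -0.09 in SPA over SVC and of -0.31 in MA over SPA. In either comparison 0 of 13 were 5-fold lower or higher, and 0.351% and 3.97% of all genes were at least 5-fold lower. In MA over SPA the 13 genes went both ways, and Anapc13 was higher by 1.25. At least 1.5-fold lower were 5 of 13, against 7135 of the 24098 genes with a ratio. The ratios of the 13 ran from -0.996 to 1.25, while Cdc20 and Ube2c, the partners of the complex described above, had -3.34 and -2.25. Of 15 genes of the E2F family, pocket proteins and MuvB complex that are no members, the medians were 0.03 and -0.56. These genes also went both ways. In MA over SPA 11 of 15 were below 0, against 53% of all genes, and 7 of 15 were at least 2-fold lower, against 18%. At least 1.5-fold higher were 4 of 15, against 5996 of the 24098 genes with a ratio, so that 4 of 15 is near that share. Rb1, the retinoblastoma protein, had 1.06 in SVC, 1.44 in SPA and 2.31 in MA. Rbl2 (p130), the pocket protein of resting cells, had -1.80, -1.74 and -1.07, and was also highest in MA. Rbl1 (p107), known as a target of E2F, had -0.16, -0.35 and -1.53. E2f3 and E2f4, of the same list, were lower in MA, with ratios of MA over SVC of -1.37 and -1.30.

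**Figure D4:**
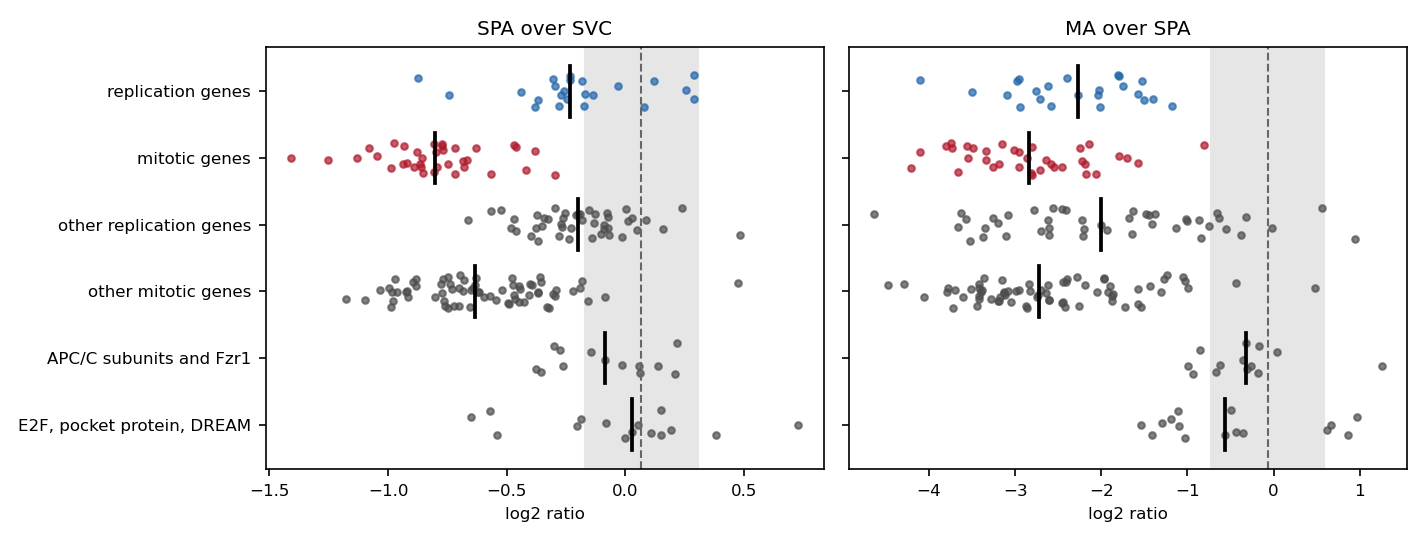
Log2 ratios of SPA over SVC (left) and MA over SPA (right) for the 23 replication and 36 mitotic genes and 4 further lists, where each point is a gene, black bars are medians, the dashed line is the median of all genes with a ratio and the grey band holds their middle quartiles. The mitotic rows stand left of the replication rows on the left side, with medians of -0.80 and -0.63 against -0.23 and -0.20, and the 13 APC/C genes have medians of -0.09 and -0.31, with Anapc13 at 1.25 on the right.

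Markers were read to check the labels. The 9 adipocyte markers summed to a scaled signal (linear, relative to the 75th percentile) of 10.1 in SVC, 83.8 in SPA and 3232 in MA, and Adipoq and Plin1 were not well above background in SVC. Markers of other cells moved between the fractions too. In SPA over SVC, 42.1% of all genes were below 0. The 7 mesothelial markers were all lower in SPA, with sums of 64.1 in SVC and 16.6 in SPA. All 8 fibroblast and progenitor markers were below 0, with ratios from -1.63 to -0.03 and sums of 250.2 and 119. The smallest of these differences lay within the median SD of repeated spots given above. Of the 5 smooth muscle markers 4 were lower, with sums of 726 and 329. The 10 macrophage markers had sums of 561 in SVC, 606 in SPA and 220 in MA, which their brightest probes carry, and single markers went both ways. Of the 10, 6 were lower and 4 were higher in SPA than in SVC, with ratios from -3.19 to 0.88. In MA against SPA, 5 were lower and 5 higher, 4 of them at least 5-fold higher. Of all 24098 genes with a ratio of MA over SPA, 11333 were above 0 and 1318 were at least 5-fold higher. In MA the sum of 6 endothelial markers was 77.4, against 2.28 in SVC and 2.78 in SPA. The mesothelial, the fibroblast and progenitor, and the smooth muscle markers summed to 25.4, 377 and 54.9 in MA. Of the 8 fibroblast and progenitor markers, 6 were higher in MA than in SPA and 2 were lower. The 5 erythroid markers with a ratio had ratios of MA over SPA above 0, and their median was 10.90 on the log2 scale, where 3 of the 5 ratios are lower bounds. The part of these cells in the ratios of cell cycle genes was not tested.

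Several genes were measured by more than 1 probe, which gives a check on single probes within the same arrays. Of 67 mitotic probes with a ratio of SPA over SVC, 67 were below 0, and of 43 replication probes 37 were. Over the 31 genes with at least 2 such probes, the probes of a gene spanned a median of 0.21. In MA over SPA they spanned a median of 0.56 over 30 genes, and 9 genes spanned more than 1. In Hmmr, a spindle and hyaluronan binding protein, the brightest probe had -1.58 and the others -4.38 and -4.90. In Prc1 the probes ran from -3.15, at the brightest, to 0.57, at a dim one. The difference between the sets thus appeared at the level of probes, and the size of a single ratio in MA depended on the probe for these 9 genes. In SPA over SVC 0 genes spanned more than 1, but single ratios depended on the probe there too. Kif23 had -0.69 at the brightest probe and -0.08 at a dimmer one, and Rfc4 had -0.23 and -0.65.

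**Figure D5:**
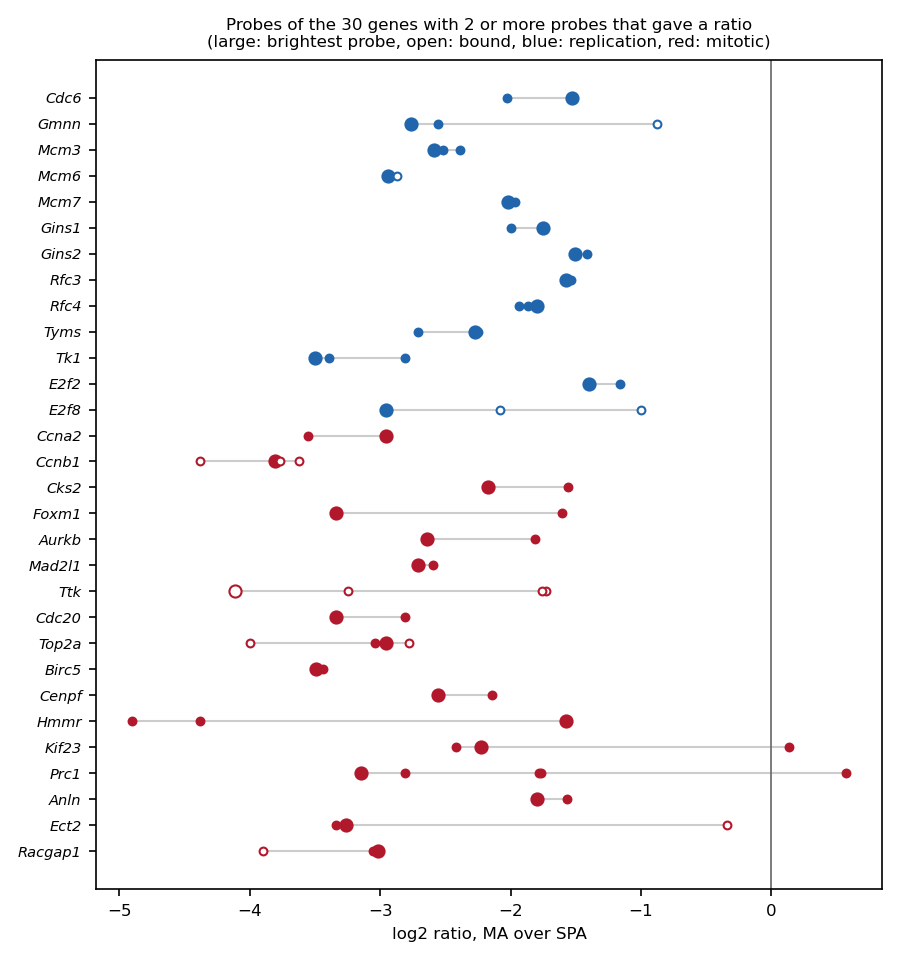
Log2 ratio of MA over SPA for every probe (points) of the 30 genes with at least 2 probes that gave a ratio, where the large point is the brightest probe, open points are bounds, and blue and red stand for replication and mitotic genes. Most probes of a gene lie together, while Hmmr spans from -4.90 to -1.58 and a dim probe each of Kif23 and Prc1 lies right of 0.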

How the data were processed

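Gene expression was measured with Agilent 1-colour arrays (mouse, annotated in mm9), 1 array for each of SVC, SPA and MA. The authors deposited, for each of 62976 spots, the intensity written by Feature Extraction 10.7.3.1 per the submitters' processing notes, as a processed signal after background subtraction and detrending. They also deposited a table of the ratio of that signal to a constant per array, which was used as an alternative. The normalization used by the study is not given in the sources used here beyond the name of its software.

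Control spots and outlier spots (75 in SVC, 98 in SPA and 129 in MA) were left out, spots of a probe were averaged, and log2 signals were scaled by the array's own 75th percentile, which was 430 for SVC, 439 for SPA and 366 for MA. Between 58.6% and 61.4% of spots were well above background. A gene passed a comparison where its brightest probe was well above background on at least 1 array of the comparison. Where it was not on the dimmer array, the ratio is a bound set by the lowest signal well above background there (13.9 in SVC, 12.5 in SPA and 10.3 in MA) or the probe's own signal, whichever was higher. No ratio was given where such a bound would have had the opposite sign. All genes passing were read in the same way, and shares of all genes refer to them, with or without a ratio. They were 22808 genes in SPA over SVC, 24101 in MA over SPA and 23596 in MA over SVC. No test was run, because each fraction has 1 array. Ratio reading was tested on simulated data.

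The 59 members, their roles, the lists and the markers were chosen with earlier results of these data known, and the 1.5-fold rule was added after seeing the data. Any member may be named, and of other genes only up to 5 with the largest ratio in each direction in each list and comparison. Results of some marker genes are not reported here. Of 77 other mitotic symbols, 72 were on the arrays and 70 had a ratio. RefSeq promoters (GRCm38.p6) were used for sequence only, and probe positions are in mm9. Alternatives were normexp background correction (limma 3.58.1, offset 50), quantile normalization, a 75th percentile taken from the probes that were bright enough everywhere, the ratio table, ratios without bounds, no genes with a bound, the median or the largest of a gene's probes, leaving out spots of outlying local background, and leaving out the regulators. Python 3.11.15 and R 4.3.3 were used.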

Additional observations from a re-analysis of the deposited data

How the results depend on the processing

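Between SPA and SVC the medians of both sets kept their sign under all 10 alternatives, from -0.86 to -0.77 for mitotic and from -0.29 to -0.22 for replication genes, with a difference from 0.54 to 0.61. With the probe of the largest ratio, 9 genes in place of 5 differed at least 2-fold, and 4 replication genes in place of 2 were at least 1.5-fold lower. The number of genes at least 5-fold lower ran from 27 to 40 in MA over SPA and from 42 to 49 in MA over SVC. None of the values of single genes that reached the 2-fold rule changed sign. Of 1577 alternative values of single genes, 288 moved by more than 0.066 on the log2 scale, the spread of a ratio taken from repeated spots. With the median or the largest of the probes, 55 genes in place of 54 were below 0 in SPA over SVC.

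Larger shifts concerned MA, where the sign was kept throughout. With normexp, the medians of MA over SPA were -2.07 (replication) and -2.33 (mitotic), with a difference of 0.26, and those of MA over SVC were -2.38 and -2.97, with 0.59. With the largest probe they were -2.40 and -3.003 in MA over SPA, and in MA over SVC the mitotic median was -3.84 and the difference 1.18. With the median of the probes, the replication medians were -2.08 and -2.36, the mitotic median of MA over SVC was -3.40, and the difference in MA over SPA was 0.72. Without spots of outlying background, the replication medians were -2.16 and -2.52, the mitotic median of MA over SVC was -3.45, and the differences were 0.64 and 0.93. Scaling to probes well above background on all arrays gave -2.20 and -2.76 in MA over SPA. Without the regulators, the replication median of MA over SVC was -2.81 and the differences were 0.47 and 0.82, and with genes well above background on both arrays they were 0.47 and 0.93. The cause of these shifts was not tested.

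No paired analysis was possible because each fraction has 1 array. Leaving out a replicate was not possible for the same reason. With 1 array per fraction the spread between animals and cultures is unknown, and signal over background limits the ratios of dim genes.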

Other observations

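Some probes stood apart from the others of their gene. A dim probe of Kif23, with a level of -1.65 in SVC, -1.73 in SPA and -1.60 in MA, had a ratio of MA over SPA of 0.14, while the brighter probes of the gene had -2.23 and -2.42. A dim probe of Prc1, with -3.66, -3.96 and -3.39, had 0.57, while the brightest had -3.15. The Hmmr probes had levels of -0.90, -3.97 and -4.96 in MA, against 0.68, 0.40 and -0.05 in SPA, so that the probes were close in SPA and far apart in MA.

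Within the chromosomal passenger complex, Aurkb and Birc5 had ratios of SPA over SVC of -0.67 and -0.72, and Incenp, which is no member, had -0.16 with a level of 4.20 in SVC, 4.04 in SPA and 0.86 in MA. Of the E2F side, E2f6 had a level of 1.88 in SVC, 2.61 in SPA and 1.07 in MA. Its highest level was in SPA, as for E2f1 and the brightest probe of E2f2. Tfdp2, a partner of E2F, had 1.30 in SVC, 0.65 in SPA and 1.62 in MA, while Tfdp1, the other partner, had 1.14, 0.60 and -0.82. These values were picked after they were seen.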
